A study of Mus musculus with 18 samples.

Results

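The fibrillar collagens examined here are 8 mouse genes, Col1a1, Col1a2, Col3a1, Col5a1, Col5a2, Col5a3, Col11a1 and Col2a1, chosen by symbol from the authors' deposited comparison table of 35734 genes. All 8 were listed there once and had an adjusted p, as did 16757 genes in all. The fibroblast experiment used mouse embryonic fibroblasts, connective tissue cells grown from embryos, of the R26-M2rtTA line on a C57BL/6 background, which carries the doxycycline-responsive transactivator. All cultures received doxycycline-inducible lentiviruses carrying the neuronal transcription factors Brn2, the product of Pou3f2, and Myt1l. In one group these were the only factors, and in the other group vectors for the zinc finger factors Ikzf1 and Ikzf4 were added. RNA was taken at 48 h from 3 libraries per group, with 34966344 to 44270426 estimated reads per library. Embryo age was not stated, and nothing says that libraries came from separate cultures, so p-values measure only the spread between these libraries, which may be technical. In the authors' deposited table the added factors were higher where the labels say so, Ikzf4 by 8.54 and Ikzf1 by 7.76 on the log2 scale. Of the factors given to both groups, Myt1l was also called higher with Ikzf1 and Ikzf4, by 0.50 (SE 0.172; adjusted p 0.0157 by DESeq2), and Pou3f2 was not called, at -0.05 (SE 0.084), in the authors' deposited table. The part of Myt1l in the collagen values was not tested.

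Fibrillar collagens are the rod-shaped proteins of tendon, skin, bone and cartilage. Each molecule is a triple helix of 3 chains, made as procollagen with propeptides that are cut off outside the cell before fibrils form. Type I collagen joins Col1a1 and Col1a2 chains, type III is a homotrimer of Col3a1, and the minor types V (Col5a1, Col5a2, Col5a3) and XI (Col11a1, Col11a2 and Col2a1) start fibrils and set their width. Type II collagen, of Col2a1, is the main collagen of cartilage. Fibroblasts are a main source of types I, III and V.

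With Ikzf1 and Ikzf4, 5 of the 8 fibrillar collagen genes fell and 0 rose in the authors' deposited table, where a call means a DESeq2 adjusted p under 0.05. The median log2 fold change of the 8 members in the authors' deposited table was -0.38, against -0.0004 over all 16757 genes. Of all genes 30.6% were called in the authors' deposited table, 15.4% lower and 15.3% higher. Genes with high mean counts were called more often. Among the 746 genes with a mean normalised count of at least 10000, 44.9% were called in the authors' deposited table, 28.2% lower and 16.8% higher, with a median log2 fold change of -0.03. The 6 members with means in that range included the 5 that fell. Such a mean is the authors' normalised count, not scaled to gene length, so the means of different genes are not compared as levels. Their table gives 1 value per gene and no level per library.

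Col3a1, the chain of type III collagen, moved farthest among the members. At a mean normalised count of 86724, its log2 fold change in the authors' deposited table was -1.29 (SE 0.064; DESeq2 adjusted p 1.22e-86). The SE gives a 95% interval of -1.42 to -1.17, and the level of Col3a1 with Ikzf1 and Ikzf4 was 40.8% of that without (37.4 to 44.5%), from the authors' deposited table. Ranked from the lowest log2 fold change, Col3a1 was number 2 of the 746 genes with a mean of at least 10000 in the authors' deposited table. A call of lower with a log2 fold change under -1 was found for 1 of the 8 members, Col3a1, for 0.913% of all genes and for 4 of those 746 genes (0.536%), in the authors' deposited table.

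Both chains of type I collagen fell by nearly the same amount. Col1a1 had a log2 fold change of -0.38 in the authors' deposited table (SE 0.061, DESeq2 adjusted p 9.14e-09), which is 76.9% of the level without Ikzf1 and Ikzf4 (70.8 to 83.5%). For Col1a2 it was -0.38 in the authors' deposited table (SE 0.058, DESeq2 adjusted p 6.69e-10), which is 76.6% (70.8 to 82.9%). These partner chains differed by 0.0047 on the log2 scale, far less than either SE. Their mean normalised counts in the authors' deposited table were 120151 and 120590.

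Among the minor chains, Col5a2 and Col11a1 fell and Col5a1 was not called. Col5a2 fell by 0.75 on the log2 scale in the authors' deposited table (SE 0.065, DESeq2 adjusted p 2.13e-28), to 59.6% of the level without Ikzf1 and Ikzf4 (54.6 to 65.1%). Col11a1 fell by 0.78 in the authors' deposited table (SE 0.085, DESeq2 adjusted p 1.28e-18), to 58.1% (51.8 to 65.2%). Col5a1, whose chain pairs with that of Col5a2 in the main form of type V collagen, did not pass the threshold. Its log2 fold change in the authors' deposited table was -0.06 (SE 0.058, DESeq2 adjusted p 0.518), with an interval of -0.17 to 0.06. Col5a1 thus lay 0.69 above Col5a2 on the log2 scale, and their intervals did not overlap. No test of a difference between genes was run, since all genes share the same libraries.

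Col5a3 and Col2a1 also did not pass the threshold. Col5a3, a minor chain of type V, had a mean of 844 and a log2 fold change of 0.19 in the authors' deposited table (SE 0.120, DESeq2 adjusted p 0.237; interval -0.04 to 0.43). Col2a1 had a mean of 1120 and a log2 fold change of -0.06 in the authors' deposited table (SE 0.223, DESeq2 adjusted p 0.888). Its interval ran from -0.50 to 0.38 and so included a fall as large as that of Col1a1. The SE of Col2a1 was larger than that of 99.9% of the 4599 genes with means within a factor of 2 of its own, whose median SE in the authors' deposited table was 0.084.

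Ordered by log2 fold change, the interval of Col3a1 lay below those of all other members. Col11a1 and Col5a2 followed with overlapping intervals, then Col1a2 and Col1a1 with overlapping intervals, whose upper neighbours Col2a1 and Col5a1 overlapped each other and Col5a3. The wide interval of Col2a1 also overlapped those of both type I chains.

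**Figure D1:**
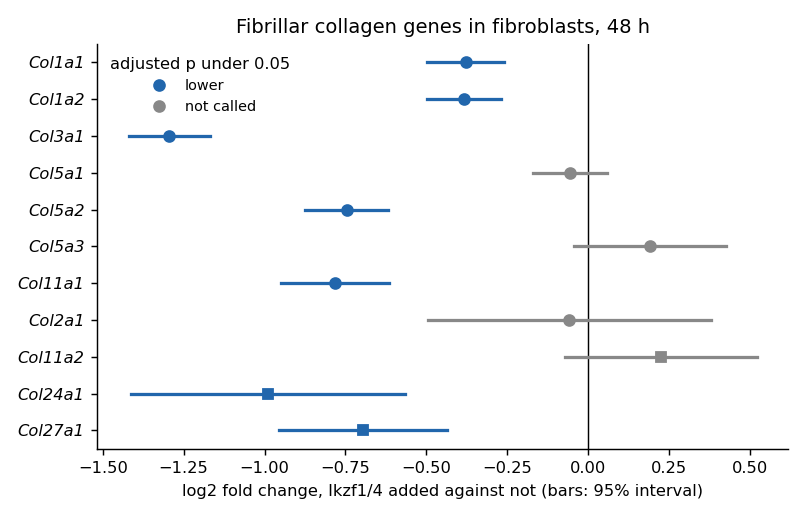
Log2 fold change of each fibrillar collagen gene (x axis, Ikzf1 and Ikzf4 added against not; bars, 95% interval from the authors' SE), with circles for the 8 members and squares for the 3 other genes of the family. Col3a1 at -1.29 lies left of every other member, and the bars of Col5a1, Col5a3, Col2a1 and Col11a2 cross 0.

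The 3 remaining genes of the family are expressed at low levels in most tissues. Col24a1 fell by 0.99 on the log2 scale in the authors' deposited table (SE 0.216, DESeq2 adjusted p 4.32e-05) at a mean normalised count of 80.1. Col27a1, a cartilage collagen, fell by 0.69 in the authors' deposited table (SE 0.132, DESeq2 adjusted p 1.92e-06). Col11a2, a partner of Col11a1 and Col2a1 in type XI collagen, had 0.22 in the authors' deposited table (SE 0.151, DESeq2 adjusted p 0.280). Of all 11 genes of the family, 7 were lower, 0 higher and 4 not called, against 15.4% lower and 15.3% higher over all genes and 28.2% lower among genes with a mean of at least 10000.

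**Figure D2:**
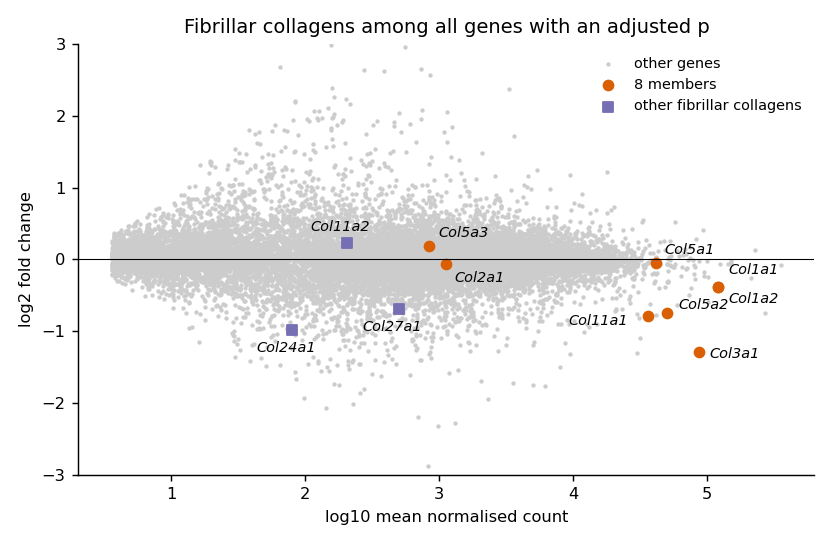
Log2 fold change (y axis, Ikzf1 and Ikzf4 added against not) against the log10 of the mean normalised count (x axis) for the 16757 genes with an adjusted p, with fibrillar collagens in colour; 4 genes beyond 3 on the y axis are not shown. The 5 members that fell have means of at least 10000, with Col3a1 lowest among them at -1.29.

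Promoter sequence is shown for members that fell and for one that did not pass the threshold, so that the stretches before their starts can be compared. RefSeq promoters (GRCm38.p6) were given for 5 of the 8 members, and 4 are printed, 5′ to 3′ on the strand of the gene, ending at the last base before the annotated gene, so that matches further on are not shown. Capitals mark matches on either strand to CCAAT (the CCAAT box, bound by NF-Y), TATAAA (the TATA box), GGGCGG (the GC box, bound by Sp1) and TGGGAA (a core of the Ikaros motif).
Col3a1, chr1:45311288-45311537, plus strand, lower with Ikzf1 and Ikzf4: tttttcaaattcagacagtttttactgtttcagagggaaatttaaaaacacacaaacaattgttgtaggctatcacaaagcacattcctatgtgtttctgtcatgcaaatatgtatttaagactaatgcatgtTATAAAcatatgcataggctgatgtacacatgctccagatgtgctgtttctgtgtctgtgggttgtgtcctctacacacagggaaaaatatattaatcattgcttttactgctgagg
Col1a2, chr6:4505368-4505617, plus strand, lower: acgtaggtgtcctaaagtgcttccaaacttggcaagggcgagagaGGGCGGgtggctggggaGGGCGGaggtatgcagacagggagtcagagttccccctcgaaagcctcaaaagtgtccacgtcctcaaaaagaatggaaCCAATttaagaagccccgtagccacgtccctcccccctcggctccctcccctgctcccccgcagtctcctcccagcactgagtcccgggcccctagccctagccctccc
Col11a1, chr3:114030290-114030478, plus strand, lower: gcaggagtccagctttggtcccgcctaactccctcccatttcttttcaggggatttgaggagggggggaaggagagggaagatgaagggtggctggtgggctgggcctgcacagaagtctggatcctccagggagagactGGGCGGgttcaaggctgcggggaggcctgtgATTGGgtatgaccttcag
Col5a1, chr2:27886175-27886380, plus strand, not called: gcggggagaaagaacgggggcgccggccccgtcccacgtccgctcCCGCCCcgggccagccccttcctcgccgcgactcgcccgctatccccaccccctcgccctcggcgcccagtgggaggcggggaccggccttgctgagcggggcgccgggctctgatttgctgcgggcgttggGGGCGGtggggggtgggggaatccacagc

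Over the 250 bases before the transcript start in the RefSeq promoter table, the promoter of Col3a1 stood apart in composition. Its GC content was 35.2%, against 62.0% for Col1a2, 62.4% for Col11a1, 62.8% for Col5a3, 76.4% for Col5a1 and a median of 52.4% over 32851 promoters. Col3a1 held a TATAAA match, with its first base at -117 from the transcript start, and none of the other letters. Whether these letters act as a TATA box was not tested. At least 1 GGGCGG match was present in 4 of the 5 members with a sequence, all but Col3a1, and in 32.7% of all promoters. CCAAT was present in Col1a2, Col11a1 and Col5a3, and in 33.8% of all promoters. TATAAA was present in 1 of the 5, and in 12.4% of all. TGGGAA was in 0 of the 5 and in 21.6% of all, which says only that these letters are not in these windows. No match of one motif overlapped a match of another.

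Genes that act on fibrillar collagens were read by step, from lists of 94 further genes in the authors' deposited table, of which 35 were lower, 15 higher and 42 not called, with 2 lacking an adjusted p. The share over all genes, beside which this count and those of each step are to be read, was 15.4% lower and 15.3% higher. Among genes with a mean of at least 10000 it was 28.2% lower and 16.8% higher, and the lists hold genes in that range too. The median log2 fold change of those of the 94 genes with an adjusted p was -0.07 in the authors' deposited table.

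Inside the endoplasmic reticulum, procollagen chains are hydroxylated, glycosylated and folded by chaperones. Of 20 such genes 10 fell, 3 rose and 7 did not pass the threshold, with a median log2 fold change of -0.17 in the authors' deposited table. The prolyl 4-hydroxylase subunit P4ha3 fell by 0.87 (SE 0.073), the prolyl 3-hydroxylase family gene P3h3 by 0.70 (SE 0.080) and the collagen chaperone Serpinh1 by 0.55 (SE 0.053), on the log2 scale of the authors' deposited table. P3h2 (0.36, SE 0.096), P3h4 (0.31, SE 0.047) and Creb3l1 (0.26, SE 0.066), a factor that drives type I collagen genes in bone, rose in the authors' deposited table. P4hb, the other subunit of prolyl 4-hydroxylase, was not called, at -0.05 (SE 0.045) in the authors' deposited table.

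Outside the cell, propeptides are cut off and chains are cross-linked by lysyl oxidases. In this list of 13 genes 6 fell, 2 rose and 5 did not pass the threshold, with a median of -0.09 in the authors' deposited table. The lysyl oxidases Lox (-0.76, SE 0.051), Loxl3 (-0.67, SE 0.071) and Loxl2 (-0.46, SE 0.047) fell in the authors' deposited table. Loxl4 (0.31, SE 0.074) and Pcolce2 (0.55, SE 0.102), an enhancer of C-propeptide cleavage, rose there. The propeptide proteases Tll1 (-0.30, SE 0.075) and Adamts14 (-0.40, SE 0.147) fell, as did Pcolce (-0.32, SE 0.052), another enhancer of C-propeptide cleavage. Of the other propeptide proteases, Bmp1 (-0.09, SE 0.048), Adamts2 (0.01, SE 0.112), Adamts3 (0.24, SE 0.217) and Tll2 (-0.04, SE 0.199) were not called in the authors' deposited table.

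Among the lists read by step, the farthest changes were those of Dcn and Ogn, in the list of proteins that start fibrils or coat them. Of 13, 6 fell, 1 rose and 6 did not pass the threshold, with a median of -0.23 in the authors' deposited table. The small leucine-rich proteoglycans Dcn (-1.77, SE 0.082), Ogn (-1.75, SE 0.065) and Kera (-1.41, SE 0.226; mean 38.8) fell in the authors' deposited table. Bgn (-0.07, SE 0.049), Lum (-0.23, SE 0.173) and Fmod (-0.20, SE 0.175), of the same family, were not called there. Tnxb, a tenascin, rose (0.79, SE 0.169). Fibronectin, on which collagen fibrils assemble, was not called, with Fn1 at 0.14 (SE 0.074; adjusted p 0.163 by DESeq2) in the authors' deposited table. Among 9 fibril-associated collagens, which bind fibril surfaces, 8 had an adjusted p in the authors' deposited table. Col16a1 fell (-0.18, SE 0.059), while Col12a1 (0.41, SE 0.079) and Col20a1 (0.85, SE 0.184) rose, and 5 were not called in the authors' deposited table.

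Of 10 receptors that bind collagen 4 fell, 1 rose and 5 were not called, with a median of -0.21 in the authors' deposited table. The integrin alpha chains Itga1 (-0.80, SE 0.083), Itga2 (-0.69, SE 0.158) and Itga11 (-0.54, SE 0.103) fell in the authors' deposited table. Their shared beta chain Itgb1 was not called, at -0.02 (SE 0.049) in the authors' deposited table. Of the 2 receptor kinases listed, Ddr2 fell (-0.52, SE 0.059) and Ddr1 rose (0.26, SE 0.053).

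Of 8 genes of collagen and matrix breakdown 7 had an adjusted p, of which 5 were lower and 1 higher, against 15.4% and 15.3% of all genes in the authors' deposited table. Ctsk, a protease that cuts the triple helix (-1.41, SE 0.120), the collagenase Mmp13 (-0.98, SE 0.207) and Adamts5, which cuts proteoglycans (-0.74, SE 0.057), fell in the authors' deposited table. Ctsl rose (0.27, SE 0.049), and the gelatinase Mmp2 was not called (0.02, SE 0.086), in the authors' deposited table.

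The factors known to act on collagen genes had 3 falls, 5 rises and 13 genes not called among 21, with a median of 0.08 in the authors' deposited table, where 15.4% of all genes were lower and 15.3% higher. The tendon factor Mkx (-1.45, SE 0.149), the mesenchymal factor Prrx1 (-0.57, SE 0.061) and Ybx1 (-0.10, SE 0.038) fell in the authors' deposited table. Runx2, an osteoblast factor (0.78, SE 0.120), Sox6 (0.74, SE 0.221) and Atf4 (0.37, SE 0.053) rose. Sox9, which drives Col2a1 in cartilage, also rose, by 0.37 (SE 0.128, DESeq2 adjusted p 0.0168), while Col2a1 itself did not pass the threshold in the authors' deposited table. The NF-Y subunits Nfya (0.07, SE 0.078), Nfyb (-0.07, SE 0.062) and Nfyc (0.14, SE 0.071), and Sp1 (0.08, SE 0.063), were not called in the authors' deposited table.

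**Figure D3:**
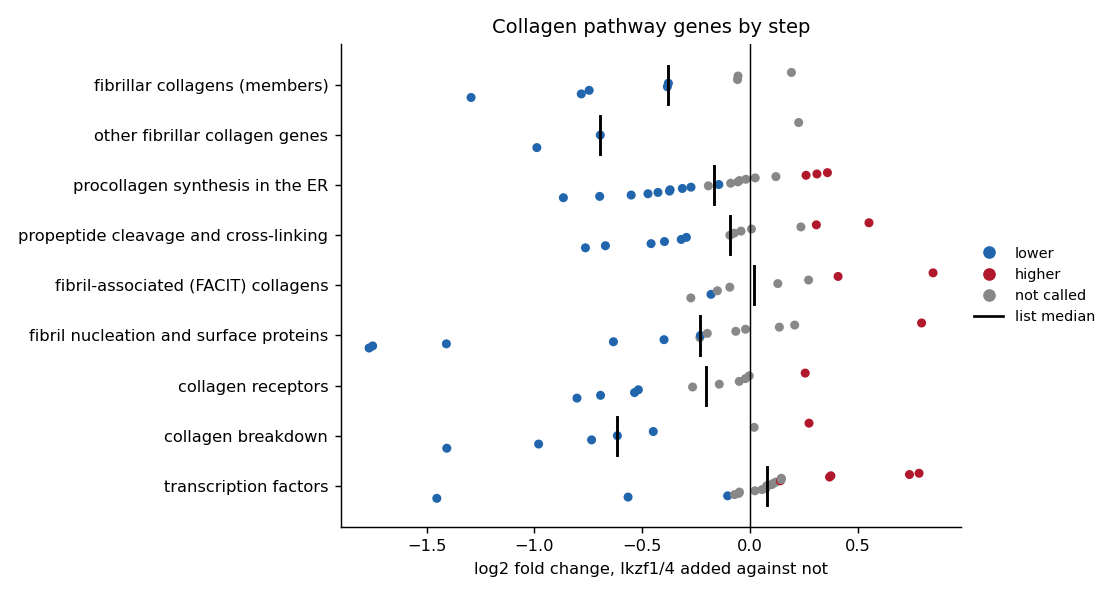
Log2 fold change (x axis, Ikzf1 and Ikzf4 added against not) of every gene with an adjusted p in the collagen lists, by step (rows; ER, endoplasmic reticulum), coloured by call at an adjusted p of 0.05, with a black line at each list's median. Medians run from -0.69 for the 3 other fibrillar collagens to 0.08 for the transcription factors.

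Markers of the cell types that such cultures can hold were read beside the collagens. Of 10 fibroblast markers 6 were lower and 0 higher, with a median of -0.30 in the authors' deposited table, against 15.4% lower and 15.3% higher over all genes and 28.2% lower among genes with a mean of at least 10000. They included Vim (-0.59, SE 0.061) and Thy1 (-0.53, SE 0.068), while Pdgfra (0.03, SE 0.118) and Fbln2 (0.08, SE 0.046) were not called in the authors' deposited table. Dcn, Lum and Prrx1 are in this list and in one of the lists above. Of 6 osteoblast markers 4 had an adjusted p, of which 2 were higher, Runx2 and Ibsp (0.62, SE 0.198), and 0 lower, with a median of 0.44 in the authors' deposited table. Ibsp had a mean of only 10.3, and Runx2 and Sp7 are also in the list of factors above. Sp7, Bglap, Dmp1 and Alpl had means of 1.45 to 5.38 in the authors' deposited table. Of 5 smooth muscle or myofibroblast markers 3 were lower and 1 higher. Among 7 neuronal markers 6 had an adjusted p, of which 1 was lower (Tubb3) and 0 higher, and Rbfox3 (mean 0.194), Snap25 (mean 5.42) and Dcx (mean 6.99) had means under 10 in the authors' deposited table. All 4 macrophage markers were present, with mean normalised counts of 1146 to 2580, and 0 were called. Of the 4 endothelial markers 0 were called, and of the 4 epithelial markers 3 had an adjusted p and 1 was higher (Epcam). In bulk RNA, fewer cells of a type and less RNA per cell cannot be told apart, and the part of these markers in the collagen values was not tested.

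Cartilage genes were read beside Col2a1, whose mean normalised count was 1120 in the authors' deposited table. Of 8 chondrocyte markers 5 had an adjusted p, of which 2 were higher, 0 lower and 3 not called, against 15.3% higher and 15.4% lower over all genes. Hapln1, the link protein of cartilage matrix, rose by 2.07 (SE 0.224; adjusted p 1.05e-18 by DESeq2) in the authors' deposited table, and the other was Sox9. Means in the authors' deposited table were 1.38 for Acan, 2.49 for Col9a1, 2.55 for Matn1 and 6.61 for Matn3, all under 10, and 16.4 for Comp, 128 for Hapln1, 157 for Col10a1 and 356 for Sox9. The part of these genes in the value of Col2a1 was not tested.

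ATAC-seq peak lists of the fibroblasts, 3 per group, were not set against the collagen genes. Their chromosome names and their peaks, which ran past the last mm10 fragment on 10 of 20 chromosomes, are those of mm9, and mm9 gene positions were not used here. Chromatin at these genes was read only in the retinal multiome of the same series, which measures accessibility in single nuclei. Its ratios are from retina, not from the fibroblasts whose RNA was read, so they do not give the state of fibroblast chromatin. That experiment has 1 library from retina of GLAST-CRE ERT2 ; RosaYFP mice with mCherry, labelled as Muller glia, and 1 library for Ikzf1/4 whose labels repeat its title. The labels of both give tamoxifen and 14 days, whereas run names in the file headers carry 48 h; which time holds was not settled. With 1 library each there is no test between conditions, and intervals cover counting error only. The libraries held 52119123 and 29358834 unique fragments, with 1964 and 762 barcodes of at least 3000 fragments, of which 3 were in both. Those barcodes held 18012580 of the fragments in the control and 14923394 with Ikzf1/4, so the share of fragments outside them was larger in the control.

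Windows covered each gene and 2 kb on both sides in GRCm38.p6, and values are fragments scaled to the total of the library (CPM). Summed over the 8 members, the control library held 281.9 CPM and the library with Ikzf1/4 held 275.2, at a ratio of 0.976 (0.95 to 1.003). In barcodes of at least 3000 fragments alone the summed ratio was 0.956 (0.915 to 0.998). The windows of the neighbours Col3a1 and Col5a2 were lower. For Col5a2 (chromosome 1, 45374331 to 45503282) the control had 33.6 CPM (32.0 to 35.2) and Ikzf1/4 had 22.5 (20.8 to 24.3), which gave a ratio of 0.671 (0.613 to 0.734). For Col3a1 (chromosome 1, 45311538 to 45349706) these were 10.4 CPM (9.54 to 11.3) and 8.41 (7.40 to 9.53), which gave a ratio of 0.809 (0.693 to 0.942). In barcodes with at least 3000 fragments the ratio was 0.476 (0.393 to 0.575) for Col5a2 and 0.861 (0.652 to 1.13) for Col3a1, whose interval then included 1.

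Col5a3 (chromosome 9, 20770050 to 20815117) had 29.5 CPM in the control against 32.8 CPM, at a ratio of 1.11 (1.03 to 1.21), which exceeded that of 56.7% of gene windows. Scaled to fragments in gene windows its ratio was 1.07 (0.989 to 1.16), with an interval that included 1. For the other 5 members the interval included 1 when scaled to the library total. Their ratios were 0.992 (0.885 to 1.11) for Col1a1, 0.998 (0.881 to 1.13) for Col1a2, 1.03 (0.979 to 1.07) for Col5a1, 0.968 (0.906 to 1.03) for Col11a1 and 1.07 (0.989 to 1.16) for Col2a1. Of the 3 other genes of the family, Col24a1 had a ratio of 1.07 (1.02 to 1.13) and Col27a1 of 1.07 (1.02 to 1.12), with intervals above 1, and Col11a2 had 0.956 (0.869 to 1.05). Scaled to fragments in gene windows, the interval lay below 1 for Col11a1, at 0.933 (0.874 to 0.997), and for the sum of the 8, at 0.941 (0.916 to 0.967). That sum includes Col5a2, the lowest of the 8 on that scale at 0.647. Of 15837 autosomal gene windows with at least 500 fragments, the interval excluded 1 in 59.1%, below it in 10.9% and above it in 48.2%, with a median ratio of 1.09. A lower ratio than that of Col5a2 was found in 0.177% of these windows, and a lower one than that of Col3a1 in 2.90%. Among windows of like fragment density, these shares were 1.36% of 588 windows for Col5a2 and 16.9% of 682 for Col3a1, with median ratios of 0.922 and 0.923. For Col11a1 the share was 61.7% of 917 windows of like density, with a median ratio of 0.934, so its ratio was not low for its density. Col1a1 had a share of 17.1% of 4219 windows, close to that of Col3a1, with a median ratio of 1.11. The share was 28.1% for Col2a1, 35.2% for Col5a1, 57.7% for Col1a2 and 62.9% for Col5a3. Among marker windows of Muller glia, the ratio was 0.862 (0.811 to 0.916) for Slc1a3, 0.917 (0.851 to 0.988) for Glul and 0.948 (0.859 to 1.05) for Rlbp1, whose interval included 1. For rods it was 1.97 (1.74 to 2.24) at Nrl and 1.39 (1.26 to 1.53) at Nr2e3. For microglia it was 0.881 (0.795 to 0.976) at P2ry12, while the intervals of Cx3cr1 (0.875, 0.759 to 1.006) and Csf1r (1.04, 0.942 to 1.15) included 1. The part of cell make-up in the collagen ratios was not tested.

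Per kb, Col2a1 had the densest window of the 8 members, at 0.999 CPM per kb in the control against 1.07 with Ikzf1/4. Its window was denser than 71.9% of gene windows with at least 500 fragments. Among windows above that floor, Col5a2 and Col3a1 were denser than 1.11% and 1.43%. Short windows of low density fall below the floor, so these shares do not place the members among all gene windows. Promoter windows (250 bases before and 50 after the start) were read for the genes with a printed sequence. Col3a1 held 8 fragments in the control and 8 with Ikzf1/4, Col1a2 14 and 13, Col11a1 35 and 35, and Col5a1 107 and 52, against medians of 17 and 11 over 32851 promoters. At this depth no difference between the libraries is read from single promoters.

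**Figure D4:**
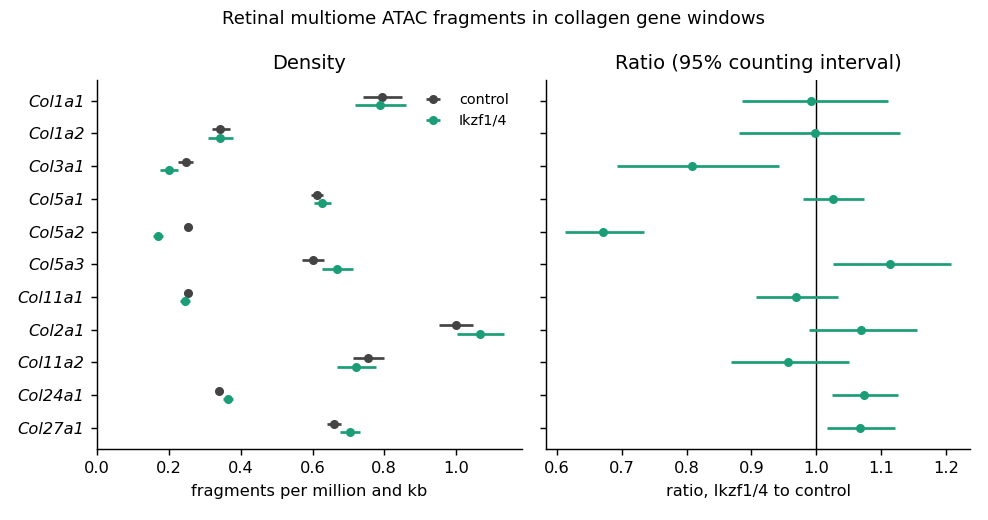
ATAC fragments of the retinal multiome in windows of the fibrillar collagen genes, as CPM per kb for both libraries (left) and as their ratio (right), 1 library each, with 95% counting intervals. Col5a2 at 0.671 and Col3a1 at 0.809 lie left of 1, and Col2a1 has the densest window.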

How the data were processed

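The members, the gene lists and the comparisons were chosen with earlier results of these data known. Per the labels, the authors quantified poly(A)-selected RNA with salmon, and their deposited files hold estimated counts per Ensembl transcript, used here for depth. The authors deposited 1 comparison made with DESeq2, per the labels, holding for each gene a normalised signal (mean), the log2 fold change and SE, a Wald score (log2 fold change over SE), and raw and adjusted p-values. Its median SE was 0.049 at means under 2, 0.172 at 100 to 200 and 0.065 above 1000. Low SEs at the lowest means occur with shrunk values, so fold changes and their SEs may be shrunk. Intervals made from such SEs may then be too narrow, above all for genes with a large SE such as Col2a1. All 8 member IDs paired with the same symbols in the gene name table. No source used here pairs transcripts with genes, so the planned edgeR fit per gene was replaced by the authors' table, and the fit per transcript was not run because no transcript could be assigned to a member. Calls used their adjusted p under 0.05, and 95% intervals were computed from their SE.

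Per the labels, MACS2 made the peak lists, 1 for each library. They served here only to check the build. Per the file headers, cellranger-arc 2.0.1 aligned the multiome to mm10, and the deposited files list each unique fragment with its count of read pairs. Fragments overlapping a window were counted once with numpy 2.4.6. Intervals are exact Poisson for values and exact conditional binomial for ratios (scipy 1.17.1), at 95%, tested on simulated data. Doublets were not called.

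Named genes are all fibrillar collagens and, per list, up to 3 genes called in each direction by size of change, plus genes a step needs. The sets of genes with a mean of at least 10000 and of windows of like density, and the retinal markers, were chosen after values were seen. A further retinal marker is not reported here.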

Additional observations from a re-analysis of the deposited data

How the results depend on the processing

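The count of 5 fibrillar collagens called lower in the authors' deposited table stayed at 5 at an adjusted p under 0.01 and with Benjamini-Hochberg adjustment over every gene with a raw p. It was 1 (Col3a1) when an absolute log2 fold change over 1 was also required. That setting moved 15 of 16 companion counts by over 1.5 times, to at most 3, and an adjusted p under 0.01 left 3 transcription factors called higher in place of 5. The summed multiome ratio of 0.976 became 0.941 (0.916 to 0.967) when scaled to fragments in gene windows, and 0.956 (0.915 to 0.998) with barcodes of at least 3000 fragments, both with intervals below 1. In gene windows that scaling also put the interval of Col11a1 below 1, at 0.933 (0.874 to 0.997). Of 27 multiome values under an alternative, 23 stayed inside the counting interval of the reported value. With barcodes of at least 3000 fragments, Col5a2 was at 0.476, Col5a3 at 1.24 and Col2a1 at 0.928 (0.836 to 1.03). The causes were not tested. No paired analysis was possible because gene values came from the authors' deposited comparison, which carries no replicate numbers. Alternatives that need gene counts per library (other tools, filters, TPM, leaving out a library) and those on peaks at the collagen loci were not run. Depth limits the multiome promoter counts.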

Other observations

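Genes next to the members in the RefSeq gene order were read as a further description, with 2 protein-coding genes on each side that had an adjusted p. Of 28 such neighbours that are no member, 9 were lower, 2 higher and 17 not called in the authors' deposited table, with a median log2 fold change of -0.07. Over all genes 15.4% were lower and 15.3% higher there. Col3a1 and Col5a2 are neighbours of each other. Beside them Gulp1, an adaptor of engulfment, was lower (-0.37, SE 0.060), as was Slc40a1, the iron exporter (-0.27, SE 0.0999), in the authors' deposited table. The farthest falls among these 28 genes were those of Ppp1r26 beside Col5a1 (-0.79, SE 0.126) and Samd14 beside Col1a1 (-0.71, SE 0.078), followed by Olfm3 (-0.62, SE 0.221) and S1pr1 (-0.61, SE 0.107) beside Col11a1, in the authors' deposited table. Gng11 beside Col1a2 (-0.30, SE 0.088), Xylt2 beside Col1a1 (-0.28, SE 0.068) and Rxra beside Col5a1 (-0.23, SE 0.055) completed the 9 lower genes in the authors' deposited table. The 2 higher genes, Olfm2 (1.27, SE 0.123) and Shfl (0.53, SE 0.183), lie next to Col5a3, which was not called in the authors' deposited table. Of the 4 neighbours of Col2a1, 0 were called there.

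The SE of Col2a1, larger than that of 99.9% of genes with means within a factor of 2 of its own, was set beside those of the chondrocyte markers in the authors' deposited table. The same share was 99.1% for Hapln1 and 98.7% for Col10a1, the collagen of hypertrophic cartilage. It was 57.1% for Sox9, 51.1% for Comp and 45.5% for Matn3. No share is read for Matn1, Col9a1 and Acan, which had no adjusted p. The genes used for comparison all had one and had higher means than these markers.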
